A study of Mus musculus with 6 samples.

Results

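Genes of cholesterol synthesis, uptake and efflux were followed in cultured primary brown adipocytes. The group was 29 genes chosen by their role, out of 22466 genes with a RefSeq transcript in the deposited table. Of these, 28 were found by their symbol and Msmo1 under its older symbol Sc4mol. For the 5 genes with more than 1 RefSeq transcript, the values are those of the most abundant. Measured values entered the rule only through this choice of transcript, but the genes were chosen with earlier results of these data known.

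The cells were brown fat precursors from the interscapular depot of young male mice of the strain 129SvEvS1, differentiated in the dish with an adipogenic cocktail that included insulin, thyroid hormone and rosiglitazone. Both genotypes shared this strain and this treatment, and no adrenergic agonist is named for the sequenced cells. The 3 WT cultures (replicates 10, 11 and 12) were wildtype at Ucp1, the gene of the uncoupling protein of brown fat, and the 3 Ucp1-KO cultures (replicates 13, 14 and 15) carried its knockout from the animal onwards. Each culture was an independent preparation, and the labels do not state how many animals it came from. The knockout locus still makes a remnant transcript, so that reads at Ucp1 remain in these cells.

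Cholesterol is built from acetyl-CoA. The mevalonate arm makes isoprenoid units up to farnesyl diphosphate, and the sterol arm joins them to squalene, closes the rings to lanosterol and trims lanosterol to cholesterol. The transcription factor SREBP2, encoded by Srebf2, drives most genes of both arms. When sterols in the endoplasmic reticulum are plentiful, INSIG proteins hold its escort SCAP back and the pathway is turned down, while oxysterols activate LXR, which raises the efflux pumps ABCA1 and ABCG1 and the ubiquitin ligase MYLIP. Fat cells keep much of their cholesterol unesterified, in membranes and at the lipid droplet surface.

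The promoters of these genes share short elements bound by the factors that work with SREBP2. The windows shown run from 250 bases before to 50 bases after the RefSeq transcription start (GRCm38.p6), 5′ to 3′ along the gene. Shown are Hmgcs1, the only one of the 23 members with a promoter entry to have a full match to the searched sterol regulatory element, and 4 members for which the genotype difference described below was the clearest and a promoter entry was at hand. Capitals mark CCAAT boxes on either strand (read as ATTGG on the other strand) and sterol regulatory elements with at most 1 mismatch.
Hmgcs1, chr13:119690101-119690400, forward strand: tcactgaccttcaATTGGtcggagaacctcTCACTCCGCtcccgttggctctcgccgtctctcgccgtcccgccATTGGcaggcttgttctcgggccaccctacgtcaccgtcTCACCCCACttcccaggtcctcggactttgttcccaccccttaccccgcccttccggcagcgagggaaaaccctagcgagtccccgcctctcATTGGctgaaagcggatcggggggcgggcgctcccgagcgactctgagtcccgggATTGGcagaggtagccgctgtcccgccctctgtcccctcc
Msmo1, chr8:64733529-64733828, reverse strand: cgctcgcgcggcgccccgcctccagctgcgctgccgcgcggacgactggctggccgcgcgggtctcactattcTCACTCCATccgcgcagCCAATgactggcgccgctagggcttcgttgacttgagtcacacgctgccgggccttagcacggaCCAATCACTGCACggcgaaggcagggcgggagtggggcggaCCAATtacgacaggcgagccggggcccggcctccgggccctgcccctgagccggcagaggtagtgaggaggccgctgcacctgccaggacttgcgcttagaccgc
Lss, chr10:76531355-76531654, forward strand: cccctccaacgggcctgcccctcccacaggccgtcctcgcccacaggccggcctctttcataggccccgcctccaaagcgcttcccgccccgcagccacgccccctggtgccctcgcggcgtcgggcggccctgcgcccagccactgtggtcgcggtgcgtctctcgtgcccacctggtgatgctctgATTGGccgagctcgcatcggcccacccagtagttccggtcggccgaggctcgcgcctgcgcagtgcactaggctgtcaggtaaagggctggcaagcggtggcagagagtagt
Srebf2, chr15:82147019-82147318, forward strand: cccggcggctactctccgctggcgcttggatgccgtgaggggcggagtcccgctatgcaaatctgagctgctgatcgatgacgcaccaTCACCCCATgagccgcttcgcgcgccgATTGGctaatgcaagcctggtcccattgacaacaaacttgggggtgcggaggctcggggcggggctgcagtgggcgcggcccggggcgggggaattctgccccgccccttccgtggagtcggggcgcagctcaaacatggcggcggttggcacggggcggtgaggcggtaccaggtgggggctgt
Tm7sf2, chr19:6067801-6068100, reverse strand: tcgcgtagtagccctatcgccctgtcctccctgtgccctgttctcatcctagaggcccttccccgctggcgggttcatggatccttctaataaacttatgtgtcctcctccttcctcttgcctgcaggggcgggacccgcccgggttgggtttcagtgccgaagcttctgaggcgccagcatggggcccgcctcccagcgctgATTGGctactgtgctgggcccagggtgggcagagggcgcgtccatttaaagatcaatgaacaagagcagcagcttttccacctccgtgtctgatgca

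The Hmgcs1 window held 4 CCAAT boxes and the Msmo1 window 3, while Lss, Srebf2 and Tm7sf2 had 1 each. In the Hmgcs1 window the full sterol regulatory element lay 137 bases before the start. The Srebf2 window had a near match 162 bases before the start, and the Msmo1 window had 2, of which that at 92 bases shared a base with a CCAAT box. Lss and Tm7sf2 had no match at this tolerance.

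The other 6 members had no entry, and all motifs were searched on both strands. The CCAAT box, bound by NF-Y, was present in 20 of 23 (87.0%), against 43.1% of the promoters of 9140 genes measured here. Acat2, Scap and Abca1 had none. The GC box GGGCGG, bound by SP1, was present in 22 of 23 (95.7%, all but Pmvk), against 69.6%. The letters TCACNCCAC of the sterol regulatory element were found in 1 of 23, against 1.47%, and with 1 mismatch allowed in 11 of 23 (47.8%), against 29.2%. The LXR element, AGGTCA repeated after a gap of 4 bases, was found in 0 of 23, against 0% of the measured genes. These matches describe the letters in a window of 300 bases and not binding.

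RNA was sequenced as single reads of 50 bases, and abundance is given in RPKM, reads per kilobase of transcript in a library of fixed size, so that levels of different genes can be compared. The totals behind the values lay between 14989604 and 17727655 reads per culture. The 28 members that were tested rested on 127 to 19086 reads in a culture, and intervals from such reads would cover counting error only. Ucp1 stood at 1775, 981 and 1157 RPKM in the WT cultures and at 307, 409 and 398 RPKM in the Ucp1-KO cultures. The Ucp1-KO mean was 28.4% of the WT mean, and the genotypes did not overlap. Its log2 fold change of -1.78 had a limma adjusted p of 0.868 as well, so that even the targeted gene did not pass adjustment over all transcripts. Adipocyte markers summed to between 29315 and 33112 RPKM, with all 6 of 6 genes above 1 RPKM. Markers of other cells were present at levels that varied between cultures. Macrophage markers (7 genes) summed to 60.2 to 182 RPKM in WT and 42.9 to 825 RPKM in Ucp1-KO cultures, the highest being replicate 14. Stromal markers (10 genes, Dpp4 at 0 in some cultures) summed to 689 to 1615 and 596 to 968 RPKM, and mural markers (3 genes) to 108 to 194 and 30.2 to 158 RPKM. Endothelial markers (5 genes) summed to 2.45 to 29.6 and 5.51 to 13.4 RPKM, muscle markers (5 genes, Myod1, Myog and Ckm at 0 in some cultures) to 8.07 to 10.8 and 5.79 to 13.6 RPKM, and markers of dividing cells (2 genes) to 3.91 to 7.81 and 6.22 to 20.2 RPKM. In a bulk sample, fewer cells of a type and less RNA per cell cannot be told apart.

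All 29 genes were detected in every culture, over a wide range of levels. The most abundant was Npc2, a carrier that takes cholesterol out of the lysosome, with a mean over the 6 cultures of 282 RPKM. Insig1, which holds SCAP in the endoplasmic reticulum, followed with 169 RPKM, and Hmgcs1, which makes the precursor of mevalonate, with 158 RPKM. The order of Insig1 and Hmgcs1 was not the same in all cultures. Among enzymes of the sterol arm, Lss, the cyclase that makes lanosterol, was highest with 47.7 RPKM, followed by Nsdhl, a sterol dehydrogenase, with 45.9 RPKM, and these neighbours overlapped in their values. Tm7sf2, a sterol reductase, was the lowest enzyme of that arm with 6.99 RPKM. Soat1, which esterifies cholesterol for storage, was the lowest tested member with 4.52 RPKM, below both efflux pumps, Abca1 (26.8 RPKM) and Abcg1 (6.84 RPKM). Idi1, the isomerase of isopentenyl diphosphate, was far below all others. It stood at 0.450, 0.376 and 0.413 RPKM in the WT and 0.454, 0.567 and 0.419 RPKM in the Ucp1-KO cultures, on 18 to 28 reads, and with a mean of 0.446 RPKM it missed the minimum of 0.5 RPKM and was not tested. Of its transcript in GENCODE M21, 30.5% of the stretches of 50 bases also occur in transcripts of other genes. For 21.3% this is a processed pseudogene (Gm13502). Gm48574 overlaps Idi1 on the other strand over 323 bases, where reads can still have a unique position. Reads that fit several places were not counted by the authors.

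**Figure D1:**
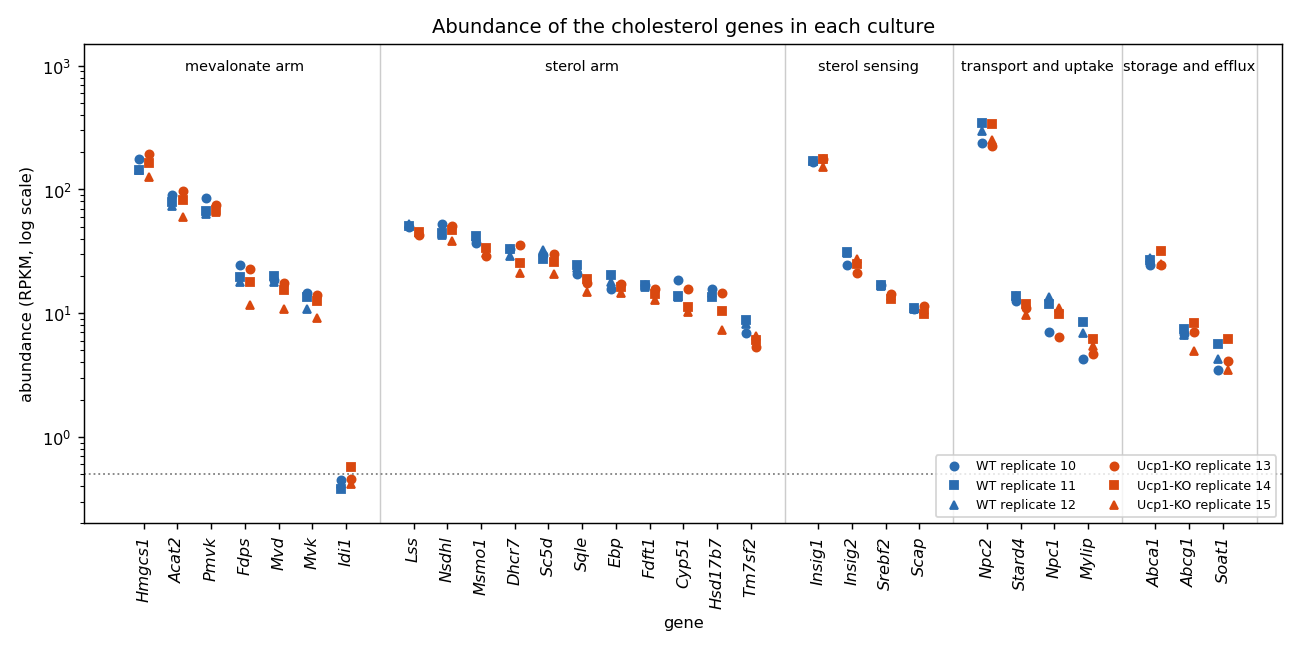
Abundance of the 29 genes in each of the 6 cultures, by role, in RPKM on a log scale (blue, WT; red, Ucp1-KO; the dotted line is the minimum mean of 0.5 RPKM for testing). Levels run from Npc2 with a mean of 282 RPKM down to Idi1 with 0.446 RPKM, and for most genes the cultures of both genotypes lie within a narrow band.

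The question of the design was whether the loss of Ucp1 goes along with other differences in abundance. Genotypes were compared with limma on log2(RPKM + 1) over the 16865 RefSeq transcripts (12259 genes) whose mean reached 0.5 RPKM. A negative log2 fold change means lower abundance in Ucp1-KO cells. After adjustment over all transcripts by the Benjamini-Hochberg method, 0 of 28 members passed a threshold of 0.05 (limma), as did 0% of all transcripts. The smallest adjusted p of a member was 0.868. Without adjustment, limma gave a p under 0.05 for 6 members, all lower in Ucp1-KO cells, and for 0 higher ones, against a background of 3.24% of all transcripts that were lower at this level and 5.54% in either direction. Limma-voom on recovered reads gave 0 members after adjustment and 6 lower ones without it, against 3.12% of all transcripts in that fit. The unadjusted number of lower members was also 6 with 1 transcript per gene (background 3.28%) and with median-of-ratios scaling (3.56%), and it was 7 without a minimum (2.43%). With 1 culture left out, the unadjusted number of lower members was 3 without WT replicate 11, WT replicate 12 or Ucp1-KO replicate 14, against 0.901%, 1.54% and 2.1% of all transcripts in the same fits, and 10 without Ucp1-KO replicate 13, against 5.27%. The differences of members are therefore described with their sizes and are not calls.

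By size, the members leaned to lower abundance in Ucp1-KO cells. The log2 fold change was below 0 for 25 of 28 members (24 under median-of-ratios scaling), with a median of -0.21, while the median of all transcripts was -0.0016 and 50.4% of them were lower. All Ucp1-KO cultures lay below all WT cultures for 8 members, against 5.15% of all transcripts, and above them for 0 members, against 6.04%. The lean rested in part on Ucp1-KO replicate 15. Without that culture 19 members were lower and 9 higher, and the median was -0.084. Members were measured in the same cultures and share a regulator, so they are not independent replicates of the genotype difference. They were also chosen with earlier results of these data known. Single markers of other cells lay lower in all Ucp1-KO cultures as well, namely 3 of 10 stromal markers, Pdgfra (19.0 to 22.3 RPKM in the WT, 13.2 to 18.8 RPKM in the Ucp1-KO cultures), Lum (2.03 to 8.81 and 1.31 to 1.99 RPKM) and Dpp4 (near or at 0), and 1 of 3 mural markers, Cspg4 (12.6 to 14.98 and 8.30 to 10.7 RPKM). Their part in the lean was not tested.

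**Figure D2:**
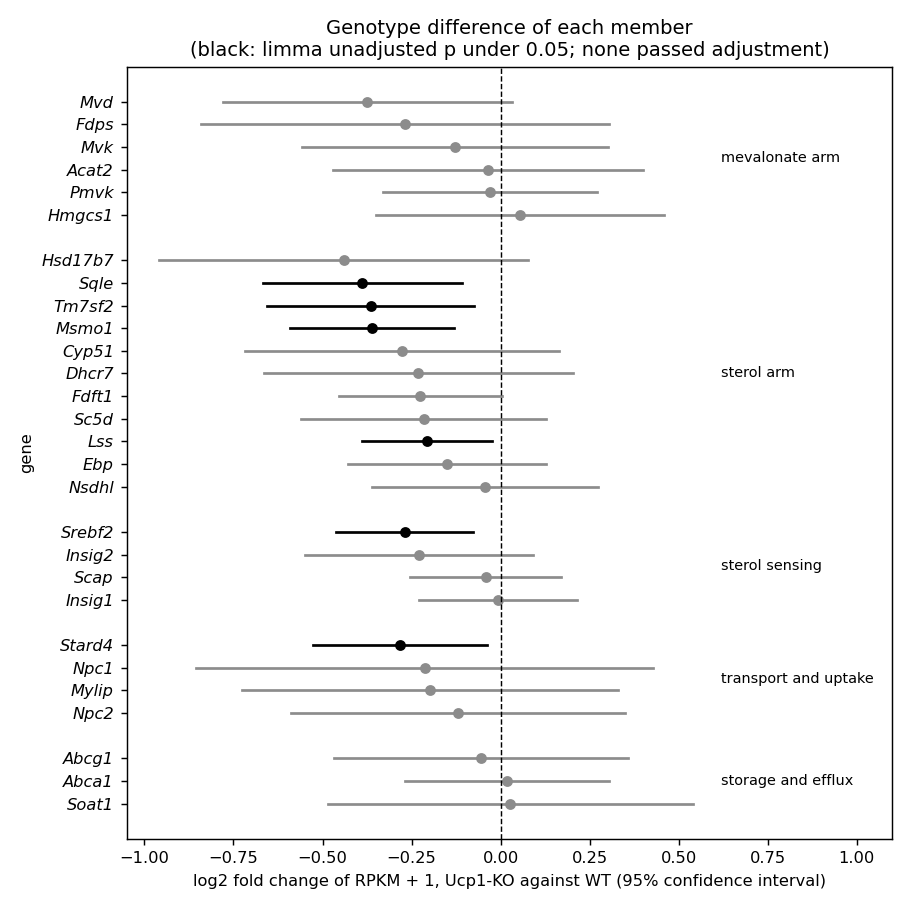
Log2 fold change of RPKM + 1 in Ucp1-KO against WT cultures for the 28 tested members, by role, with 95% confidence intervals of limma (n = 3 cultures per genotype; black, unadjusted p under 0.05). Points of the sterol arm all lie left of 0, and those of storage and efflux lie around it.

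The sterol arm, from squalene to cholesterol, leaned to lower abundance, and none of its enzymes passed adjustment. All 11 of its enzymes were lower in Ucp1-KO cells, with a median log2 fold change of -0.23 and a range from -0.44 to -0.043. Of these, 4 had an unadjusted limma p under 0.05 and 5 had all Ucp1-KO cultures below all WT cultures, against 3.24% and 5.15% of all transcripts.

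Msmo1, the sterol methyl oxidase that removes methyl groups from lanosterol-derived sterols, had the smallest unadjusted p of the group. It lies on chromosome 8 of GRCm38, from 64718139 to 64733792. Its abundance was 36.8, 42.3 and 41.5 RPKM in WT replicates 10, 11 and 12 and 28.99, 33.4 and 30.9 RPKM in Ucp1-KO replicates 13, 14 and 15. The genotypes did not overlap (p = 0.1 in an exact permutation test, two-sided, which with 3 against 3 cultures cannot go lower). The Ucp1-KO mean was 77.3% of the WT mean, with a log2 fold change of -0.36 (95% confidence interval -0.59 to -0.13, limma adjusted p = 0.868).

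Sqle, squalene epoxidase, a rate-setting enzyme at the entrance to the sterol rings, lies on chromosome 15 from 59315077 to 59331192. It stood at 20.8, 24.5 and 23.0 RPKM in the WT cultures and at 17.7, 19.1 and 14.9 RPKM in the Ucp1-KO cultures, of which replicate 15 was the lowest. The highest Ucp1-KO culture remained below the lowest WT culture. Its log2 fold change was -0.39 (interval -0.67 to -0.11, limma adjusted p = 0.868). Msmo1 and Sqle were the members whose unadjusted limma p stayed under 0.05 with any 1 of the 6 cultures left out, with log2 fold changes of -0.42 to -0.31 for Msmo1 and -0.46 to -0.29 for Sqle.

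Tm7sf2 was the least abundant enzyme of the arm. It lies on chromosome 19 from 6062821 to 6068373 and rested on 127 to 219 reads per culture. The WT cultures had 6.97, 8.87 and 8.16 RPKM and the Ucp1-KO cultures 5.32, 6.04 and 6.59 RPKM. The lowest WT and the highest Ucp1-KO culture were close to each other. Its log2 fold change was -0.37 (interval -0.66 to -0.073, limma adjusted p = 0.868).

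Lss lies on chromosome 10 from 76531588 to 76557138. It differed little in size but also little between cultures of a genotype. It was found at 50.02, 50.7 and 52.7 RPKM in WT cultures and at 42.7, 45.2 and 44.8 RPKM in Ucp1-KO cultures, or 51.1 ± 1.37 and 44.2 ± 1.33 RPKM (SD, n = 3 each). Its log2 fold change of -0.21 had an interval from -0.39 to -0.023 (limma adjusted p = 0.868).

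Fdft1, squalene synthase, commits farnesyl diphosphate to sterols. It had 17.0, 17.0 and 16.4 RPKM in the WT and 15.6, 14.3 and 12.8 RPKM in the Ucp1-KO cultures. The genotypes did not overlap, at a log2 fold change of -0.23 (interval -0.45 to 0.0034, limma adjusted p = 0.868). Its GENCODE transcript of 3698 bases overlaps Ctsb on the other strand over 774 bases. The length recovered for its RefSeq transcript was 2863 bases, so the overlap may lie outside the transcript measured here. Without strand in the counting, reads of such an overlap cannot be told apart.

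The largest difference of all members was that of Hsd17b7, a reductase of the sterol arm, with a log2 fold change of -0.44. Its values were 15.8, 13.5 and 14.5 RPKM in the WT cultures and 14.7, 10.5 and 7.38 RPKM in the Ucp1-KO cultures. Ucp1-KO replicate 13 lay within the WT range and replicate 15 far below it, so the genotypes overlapped and the interval from -0.96 to 0.078 included 0 (limma, adjusted p = 0.871). Its log2 fold change was -0.67 without replicate 13 and, without replicate 15, -0.21, below that of Tm7sf2 (-0.43) and Msmo1 (-0.36) in size. The other enzymes of the arm also overlapped between genotypes. Their log2 fold changes were -0.28 for Cyp51, the lanosterol demethylase, -0.23 for Dhcr7, which makes cholesterol from its last precursor, -0.22 for the desaturase Sc5d, -0.15 for the isomerase Ebp and -0.043 for Nsdhl. Single cultures moved these values. Without Ucp1-KO replicate 15 they were -0.16 for Cyp51, -0.064 for Dhcr7, -0.078 for Sc5d and -0.090 for Ebp, and without Ucp1-KO replicate 13 they were -0.45 for Cyp51, -0.43 for Dhcr7 and -0.34 for Sc5d. Cyp51 was at -0.14 without WT replicate 10, and Ebp was at -0.24 without WT replicate 10 and -0.066 without WT replicate 11. Nsdhl turned to 0.047 without WT replicate 10 and to 0.067 without Ucp1-KO replicate 15.

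**Figure D3:**
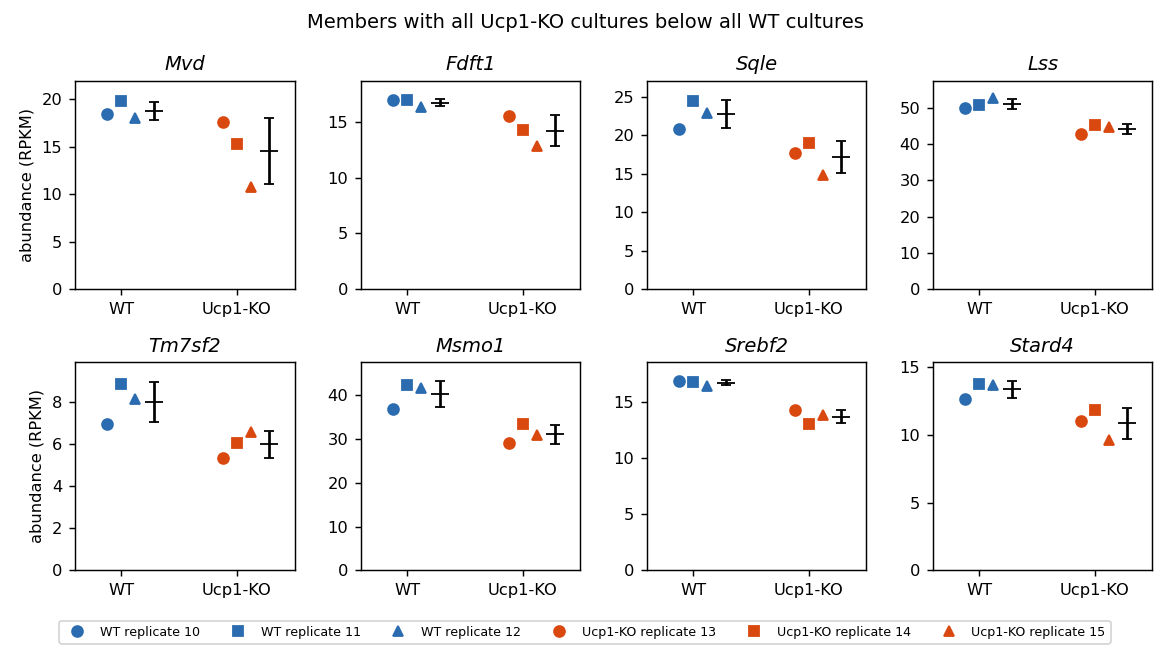
Abundance in RPKM of the 8 members whose Ucp1-KO cultures all lay below all WT cultures (points, single cultures; black, mean ± SD, n = 3; axes start at 0). The gap between genotypes is clear against the spread for Msmo1, Lss and Srebf2 and small against it for Mvd, where replicate 15 reached 10.7 RPKM.

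In the mevalonate arm the values were nearer to 0, and the difference from the sterol arm was not tested. Of the 6 tested, 5 were lower and 1 higher, with a median log2 fold change of -0.081, and 0 had an unadjusted limma p under 0.05. The direction depended on single cultures, since the median was 0.024 without Ucp1-KO replicate 15, 0.0037 without WT replicate 10, -0.22 without Ucp1-KO replicate 13, -0.18 without WT replicate 12 and -0.12 without Ucp1-KO replicate 14. Mvd, the decarboxylase that makes isopentenyl diphosphate, was the only gene of this arm without overlap, with 18.4, 19.8 and 18.0 RPKM in WT and 17.5, 15.3 and 10.7 RPKM in Ucp1-KO cultures (log2 fold change -0.37, interval -0.78 to 0.033, limma adjusted p = 0.868). Ucp1-KO replicate 13 was near the WT values and replicate 15 far from them, and without the latter the log2 fold change was -0.18. Fdps, farnesyl diphosphate synthase, had 24.7, 19.5 and 17.7 RPKM in WT and 22.7, 17.9 and 11.6 RPKM in Ucp1-KO cultures and overlapped fully apart from replicate 15. Its reads are uncertain, since 82.0% of the 50-base stretches of its GENCODE transcript also occur in transcripts of other genes, mainly the overlapping Gm43738 on the same strand.

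Hmgcs1 was the only tested gene of this arm with a higher mean in Ucp1-KO cells. It had 175, 145 and 143 RPKM in WT and 194, 165 and 127 RPKM in Ucp1-KO cultures, and both the highest and the lowest culture were Ucp1-KO (log2 fold change 0.055, 95% confidence interval -0.35 to 0.46). Acat2, which joins acetyl-CoA units at the start of the path, Mvk and Pmvk, the kinases of mevalonate and phosphomevalonate, had log2 fold changes of -0.035, -0.13 and -0.029. Acat2 shares 45.9% of its 50-base stretches with Acat3, and only the rest of it can hold uniquely placed reads.

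In the sterol sensing group, all 4 genes had a log2 fold change below 0. Srebf2 was the only 1 of them whose genotypes did not overlap. It lies on chromosome 15 from 82147181 to 82205379. The WT cultures had 16.9, 16.8 and 16.5 RPKM and the Ucp1-KO cultures 14.3, 13.1 and 13.8 RPKM. With 16.7 ± 0.236 and 13.7 ± 0.616 RPKM (SD, n = 3 each), the spread within a genotype was small against the gap, and the log2 fold change was -0.27 (interval -0.46 to -0.076, limma adjusted p = 0.868). Its escort Scap went from 10.9 ± 0.152 RPKM in the WT to 10.6 ± 0.760 RPKM in the Ucp1-KO cultures (SD, n = 3 each) and a log2 fold change of -0.042 (95% confidence interval -0.25 to 0.17).

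Insig1 had 167, 170 and 170 RPKM in WT and 176, 177 and 153 RPKM in Ucp1-KO cultures. With a log2 fold change of -0.0077 and an interval from -0.23 to 0.21, it was the member with the smallest difference. Insig2, its less abundant relative, had 24.7, 31.3 and 30.7 RPKM in WT and 21.3, 24.8 and 27.4 RPKM in Ucp1-KO cultures, a log2 fold change of -0.23 (interval -0.55 to 0.092), or -0.18 for its other RefSeq transcript and -0.13 without Ucp1-KO replicate 13.

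All 4 genes of transport and uptake were lower in Ucp1-KO cells, with a median log2 fold change of -0.21. This median was -0.38 without WT replicate 10, -0.068 without WT replicate 11, -0.13 without WT replicate 12 and -0.057 without Ucp1-KO replicate 13. Stard4, a soluble carrier that moves cholesterol between membranes, had 12.7, 13.7 and 13.7 RPKM in WT and 11.1, 11.8 and 9.63 RPKM in Ucp1-KO cultures. The genotypes did not overlap, at a log2 fold change of -0.28 (interval -0.53 to -0.039, limma adjusted p = 0.868). The other 3 genes varied more between cultures than between genotypes. Npc1, the lysosomal membrane partner of Npc2, had 6.98, 11.9 and 13.4 RPKM in WT and 6.40, 9.80 and 10.98 RPKM in Ucp1-KO cultures. Mylip, a ligase that marks lipoprotein receptors for degradation, had 4.30, 8.50 and 6.90 RPKM and 4.65, 6.22 and 5.46 RPKM. Npc2 had 239, 347 and 296 RPKM and 225, 339 and 250 RPKM. In each of these 3 genes the lowest cultures of the genotypes were WT replicate 10 and Ucp1-KO replicate 13. Their log2 fold changes were -0.21, -0.20 and -0.12, all with intervals that included 0. With 1 culture left out, Npc1 ranged from -0.47 (without WT replicate 10) to -0.0063 (without Ucp1-KO replicate 13), Mylip from -0.43 (without WT replicate 10) to -0.014 (without WT replicate 11) and Npc2 from -0.29 (without Ucp1-KO replicate 14) to 0.0084 (without WT replicate 11), with 0.0039 without Ucp1-KO replicate 13.

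For storage and efflux genes, the median log2 fold change was 0.017, with 1 gene lower and 2 higher. The direction depended on single cultures, since the median was -0.17 without Ucp1-KO replicate 14, -0.072 without WT replicate 10 and 0.13 without Ucp1-KO replicate 15. Abca1 had 24.7, 27.1 and 27.8 RPKM in WT and 24.4, 31.6 and 24.97 RPKM in Ucp1-KO cultures, Abcg1 had 6.74, 7.44 and 6.61 and 7.05, 8.31 and 4.91 RPKM, and Soat1 had 3.50, 5.61 and 4.23 and 4.14, 6.16 and 3.47 RPKM. The genotypes overlapped for all 3, and Ucp1-KO replicate 14 was the highest culture for each. The 95% confidence intervals of the log2 fold change were -0.27 to 0.30 for Abca1, -0.47 to 0.36 for Abcg1 and -0.49 to 0.54 for Soat1. Ucp1-KO replicate 14 was also the culture with the highest macrophage markers (825 RPKM summed over 7 genes, against 42.9 to 182 RPKM elsewhere, all 7 above 0), and their part in these values was not tested.

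Cultures were then compared with each other. For each gene, the mean of log2(RPKM + 1) over the 6 cultures was subtracted. The median of these deviations over the 17 tested synthesis enzymes stood at 0.16, 0.12 and 0.077 for WT replicates 10, 11 and 12, and at 0.14, -0.072 and -0.37 for Ucp1-KO replicates 13, 14 and 15. Over all transcripts the same medians were between -0.064 and 0.050. Ucp1-KO replicate 13 lay within the WT values in this median, which joins both arms. In the mevalonate arm it stood at 0.23, against 0.21, 0.025 and -0.12 in the WT cultures, and in the sterol arm at 0.023, against 0.094, 0.13 and 0.15. Under median-of-ratios scaling it stood at 0.27 in the mevalonate arm, against 0.28, -0.035 and -0.15. In the sterol arm it was then at 0.065, against 0.17, 0.069 and 0.11. Replicate 15 was the lowest culture in both arms, with -0.40 and -0.25.

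Ucp1-KO replicate 15 was below the mean of the 6 cultures for 17 of 17 synthesis enzymes and was the lowest culture for 13 of them (76.5%), as for 26.5% of all transcripts. The enzymes it was not the lowest for were Pmvk, Lss, Tm7sf2 and Msmo1. Fdps and Hsd17b7 were furthest down, at deviations of -0.63 and -0.67, and both had a ratio of 2.13 between their highest and lowest culture, the largest of the group. This culture had the fewest reads (14989604), the lowest macrophage (42.9 RPKM), stromal (596 RPKM) and mural (30.2 RPKM) marker sums and the highest adipocyte marker sum (33112 RPKM, of which Fabp4 made up 29312). Of the 6 adipocyte markers, Fabp4, Pparg and Cidea were highest in this culture and Adipoq, Plin1 and Lipe were not. Among the stromal markers, Pdgfra, Pdgfrb, Thy1 and Ly6a were lowest in this culture, and Dpp4 was 0 here and in Ucp1-KO replicate 14. Cd34, Col1a1, Col3a1 and Lum were lowest in other cultures, and Dlk1 was highest in this one. The part of these values in the result was not tested. Without it, the median log2 fold change of the synthesis enzymes was -0.090 in place of -0.23, while 5 members (Msmo1, Sqle, Lss, Tm7sf2 and Srebf2) had an unadjusted limma p under 0.05, against 2.03% of all transcripts lower in that fit.

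A further pattern, noticed after the values were seen, joined a WT and a Ucp1-KO culture. WT replicate 10 and Ucp1-KO replicate 13 were together the highest pair for 9 of 28 members (32.1%, against 10.5% of all transcripts), namely Acat2, Hmgcs1, Mvk, Pmvk, Fdps, Cyp51, Nsdhl, Hsd17b7 and Dhcr7. All of these are synthesis enzymes. They were the lowest pair for 5 members (17.9%, against 27.2%), namely Insig2, Mylip, Npc1, Npc2 and Abca1, of which none is an enzyme of synthesis. Some cell type markers were highest in the same cultures. Among adipocyte markers these were 3 of 6, Adipoq (1480 and 1714 RPKM, at most 1410 elsewhere), Plin1 (451 and 456 RPKM, at most 427) and Lipe (510 and 523 RPKM, at most 473). Among mural markers it was 1 of 3, Acta2 (181 and 147 RPKM, at most 111). Among muscle markers it was Acta1, while Myod1, Myog, Ckm and Des were not highest in both cultures. The other 5 adipocyte and mural markers did not follow. Fabp4, Pparg and Cidea (669 and 635 RPKM in this pair) were highest in Ucp1-KO replicate 15, where Cidea stood at 1371 RPKM. Rgs5 (0.583 and 0.137 RPKM) and Cspg4 (12.6 and 10.7 RPKM) were highest in WT replicate 11, with 5.56 and 14.98 RPKM. Markers of dividing cells (2 genes) summed to 7.81 and 20.2 RPKM, against at most 7.76 RPKM elsewhere. Only Mki67 was highest in both cultures (3.24 and 8.38 RPKM, at most 3.15 elsewhere). Top2a had 4.57 RPKM in WT replicate 10 and 11.8 RPKM in Ucp1-KO replicate 13, against 4.62 RPKM in Ucp1-KO replicate 14. The part of all these markers in the pattern was not tested. No label ties these cultures to a common day or batch.

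**Figure D4:**
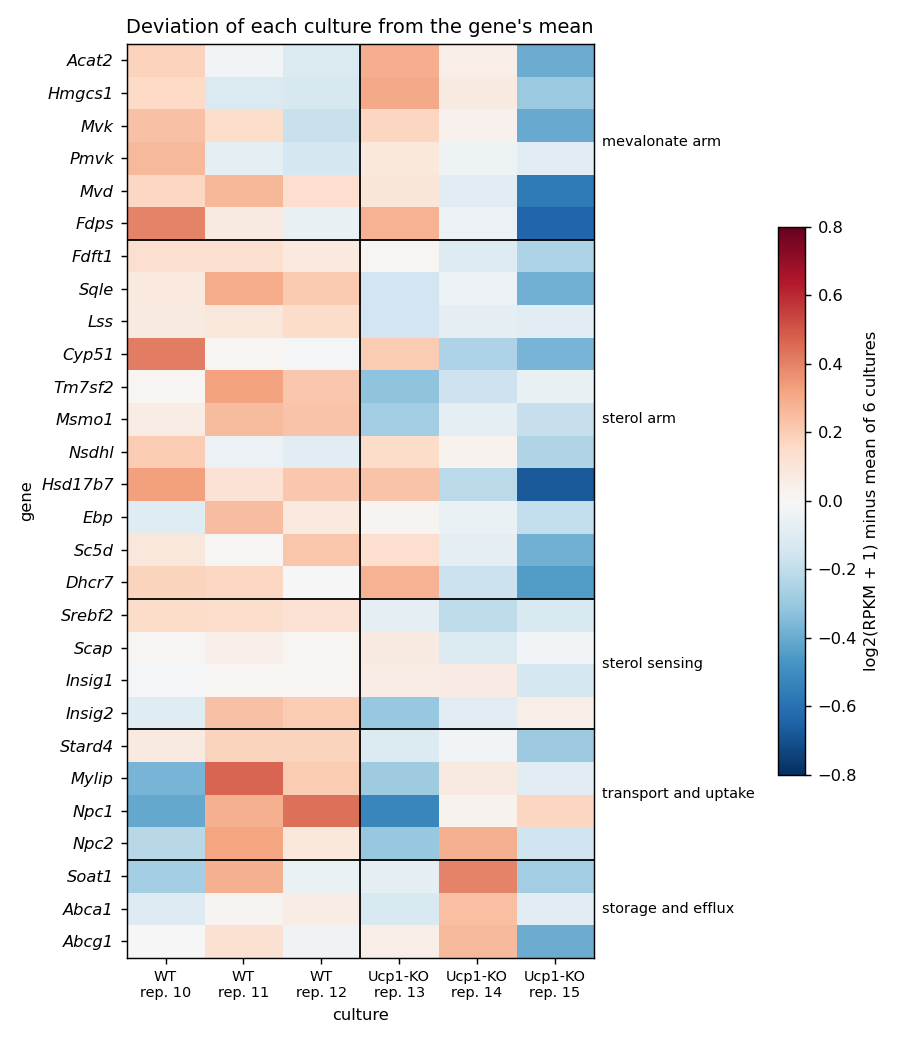
Deviation of each culture from the mean of the 6 cultures on the log2(RPKM + 1) scale for the 28 tested members (rows, by role; red, above the mean; blue, below). Ucp1-KO replicate 15 is below the mean for all 17 enzymes of the mevalonate and sterol arms, and WT replicate 10 and Ucp1-KO replicate 13 are below it together for Mylip, Npc1 and Npc2.

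Other genes of sterol balance were taken from a list of 40, chosen for their role in sensing, lipoprotein uptake, oxysterol formation and isoprenoid use. Of 38 tested, 15 were lower and 23 higher in Ucp1-KO cells, with a median log2 fold change of 0.028. An unadjusted limma p under 0.05 was found for 0 of them in either direction, against 5.54% of all transcripts, and the smallest adjusted p was 0.871. All Ucp1-KO cultures lay below all WT cultures for 2 of the 38, Mbtps1, the protease that first cuts SREBP, and Osbp, an oxysterol-binding protein, against 5.15% of all transcripts. Lrp8, a lipoprotein receptor under the minimum abundance, was not tested and also showed no overlap, at 0.464 to 0.657 RPKM in the WT and 0.174 to 0.406 RPKM in the Ucp1-KO cultures. The 5 most abundant were Cav1, which coats caveolae (353 RPKM, log2 fold change 0.30), the acetyl-CoA synthetase Acss2 (196 RPKM, -0.050), the lysosomal lipase Lipa (172 RPKM, 0.067), the mitochondrial thiolase Acat1 (120 RPKM, 0.12) and Srebf1 (109 RPKM, 0.019), all with overlapping genotypes. Srebf1, the relative of Srebf2 that mainly drives fatty acid synthesis, had 125, 104 and 96.0 RPKM in WT and 133, 105 and 92.6 RPKM in Ucp1-KO cultures.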

How the data were processed

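RNA of 3 WT and 3 Ucp1-KO cultures was measured, grouped by their labels. The authors mapped the reads to mouse genome build 38, counted those with a unique position per known transcript and deposited RPKM values, normalized to transcript length and mapped reads. The library kit is not stated to keep strand. The authors' own comparison was made with DESeq2 on reads, while the values used here are RPKM.

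From the 168326 rows of the table, the 28890 RefSeq transcripts were used, and the 16865 with a mean of at least 0.5 RPKM were compared by limma 3.58.1 on log2(RPKM + 1), with moderated variances that follow the abundance (R 4.3.3), with Benjamini-Hochberg adjustment over all of them. Because of the added 1 RPKM, log2 fold changes of low genes understate their RPKM ratio. Single genes were also compared by an exact two-sided permutation test. The labels call the cultures independent without tying them to animals, so that p-values measure the spread between these preparations. Library totals were recovered from RPKM of Ensembl transcripts and their GENCODE M21 lengths, with which about 92.7% to 92.9% of the values came out as whole reads, to a tolerance of 0.02 reads. For each RefSeq transcript, the smallest length that gave whole reads in all cultures was then taken, so that whole reads for all 16865 tested transcripts are partly set by this choice. The comparison and the recovery were tested on simulated data. Promoters were RefSeq sequences of GRCm38.p6, matched by symbol, and gene coordinates are from GENCODE M21. Python 3.11.15, numpy 2.4.6, pandas 2.3.3 and matplotlib 3.10.9 were used.

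The 29 members and the other gene lists were chosen with earlier results of these data known. Named genes are all members, the 5 most abundant of the other sterol genes, and Ucp1. Mbtps1, Osbp and Lrp8 were named after their values were seen. Alternatives were 0.1 RPKM as the added constant, no minimum RPKM, 1 transcript per gene, median-of-ratios scaling, limma-voom on reads and each culture left out in turn. All 6 value columns of the table were matched to a sample by name.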

Additional observations from a re-analysis of the deposited data

How the results depend on the processing

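No paired analysis was possible because the genotypes share no replicate numbers. No member passed the adjusted threshold under any of the 11 alternatives, although the fit without a minimum RPKM made 22 calls over all 28890 transcripts. The number of members lower at an unadjusted limma p under 0.05 was 6, also with 0.1 RPKM added, with 1 transcript per gene, under median-of-ratios scaling and with limma-voom, and it was 7 without a minimum, while the share of all transcripts lower at this level was 3.24%, 3.28%, 3.56%, 3.12% and 2.43% in these fits. With 1 culture left out the number lay between 3 (without WT replicate 11, WT replicate 12 or Ucp1-KO replicate 14) and 10 (without Ucp1-KO replicate 13), while the share of all transcripts lower at this level moved between 0.901% and 7.44%, the number of members higher in Ucp1-KO cells between 2 and 9 (without Ucp1-KO replicate 15), the median log2 fold change of all members between -0.23 and -0.084 (without Ucp1-KO replicate 15), that of the mevalonate arm between -0.22 and 0.024, that of transport and uptake between -0.38 and -0.057 and that of storage and efflux between -0.17 and 0.13. Genes with small differences changed sign with 1 culture left out. Their log2 fold changes ranged from -0.19 to 0.15 for Acat2, -0.085 to 0.22 for Hmgcs1, -0.25 to 0.041 for Mvk, -0.11 to 0.094 for Pmvk, -0.13 to 0.067 for Nsdhl, -0.090 to 0.0048 for Scap, -0.044 to 0.060 for Insig1, -0.29 to 0.0084 for Npc2, -0.17 to 0.18 for Soat1, -0.098 to 0.082 for Abca1 and -0.20 to 0.13 for Abcg1. Median-of-ratios scaling turned Insig1 to 0.0046. Under this scaling the median deviation of the synthesis enzymes was 0.24, 0.060 and 0.047 in WT replicates 10, 11 and 12. In Ucp1-KO replicates 13, 14 and 15 it was 0.18, -0.10 and -0.37. The cause of these changes was not tested. Counting error was not separated from the spread between cultures, and it weighs most on members with few reads, such as Tm7sf2 (127 to 219) and Idi1 (18 to 28).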
